A study of Homo sapiens with 12 samples.

Results

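The 10 Krüppel-like factor genes *KLF2*, *KLF3*, *KLF4*, *KLF5*, *KLF6*, *KLF9*, *KLF10*, *KLF11*, *KLF13* and *KLF16* were followed across 12 RNA-seq libraries of HCT116, a diploid human colon cancer cell line. They were selected by gene symbol from the 26364 symbols counted, with earlier results of these data known. Each library represented 1 condition, and the 12 conditions combined 2 cell lines, 3 inhibitor settings and 2 TNFα settings. The cells were wild type (WT) or a p65-deficient derivative. They received no inhibitor, camptothecin (CPT, an inhibitor of topoisomerase I, TOP1) or ICRF193 (an inhibitor of topoisomerase II, TOP2), the inhibitors at 5 µM with a pre-incubation of 2 h. The paper also lists treatment with vehicle. The sample labels do not say whether cells without inhibitor received it, and the part of a solvent was not tested. TNFα was either not given (0 h) or added at 20 ng/mL for 1 h after the pre-incubation, so that cells at 1 h may have been exposed to an inhibitor for longer than cells at 0 h, and the part of this difference was not tested. The p65-deficient cells were a single-cell clone obtained with a CRISPR-Cas9 guide against the third exon of the gene for p65, whereas the sample labels speak of an shRNA. With 1 clone, the loss of p65 and other properties of that clone cannot be told apart.

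Krüppel-like factors are zinc finger transcription factors that bind GC-rich and CACCC-type elements in promoters and are closely related to the SP factors. Their zinc fingers are alike, and the remaining parts of the proteins decide which partners are recruited: KLF3 binds the corepressor CtBP, whereas KLF9, KLF10, KLF11, KLF13 and KLF16 bind SIN3A. In the intestinal epithelium KLF5 is known as a factor of proliferating crypt cells and KLF4 as a factor of differentiated, non-dividing cells. KLF2, KLF4, KLF6 and KLF10 belong to the members known to respond quickly to signals, KLF10 being also known as the TGFβ-inducible early gene product.

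Promoter windows of RefSeq, taken from the GRCh38.p14 build and spanning 250 bases before to 50 bases after each annotated start, were found for 8 of the 10 genes and gave 10 windows. The 250 bases before the start are shown for *KLF2* and *KLF4*, the members that were higher with CPT, and for *KLF6*, a member that responded to TNFα. Capitals mark GGGCGG, the core of the GC box that SP and KLF proteins bind, CCAAT and TATAA, each on either strand.

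KLF2, chr19:16324576-16324825, plus strand: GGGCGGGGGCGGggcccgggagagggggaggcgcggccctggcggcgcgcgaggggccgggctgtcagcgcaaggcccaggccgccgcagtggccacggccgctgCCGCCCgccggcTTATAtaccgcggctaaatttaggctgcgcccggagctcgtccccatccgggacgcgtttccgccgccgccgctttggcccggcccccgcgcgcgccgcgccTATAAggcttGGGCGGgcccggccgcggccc

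KLF4, chr9:107489770-107490019, minus strand: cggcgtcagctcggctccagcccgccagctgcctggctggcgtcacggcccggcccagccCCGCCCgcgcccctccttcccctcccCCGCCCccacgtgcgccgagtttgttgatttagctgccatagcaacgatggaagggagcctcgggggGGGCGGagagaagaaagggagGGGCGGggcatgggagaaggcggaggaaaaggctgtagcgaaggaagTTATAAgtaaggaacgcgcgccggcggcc

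KLF6, chr10:3785210-3785459, minus strand: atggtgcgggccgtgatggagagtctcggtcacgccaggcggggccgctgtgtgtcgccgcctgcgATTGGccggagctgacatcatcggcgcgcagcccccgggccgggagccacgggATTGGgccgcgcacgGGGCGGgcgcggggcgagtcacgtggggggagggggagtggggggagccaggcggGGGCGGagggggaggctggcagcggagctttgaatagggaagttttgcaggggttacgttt

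The *KLF2* stretch held 4 GGGCGG matches and 2 TATAA matches, and the *KLF4* stretch held 4 GGGCGG matches and 2 TATAA matches that overlap on opposite strands. The *KLF6* stretch held 2 GGGCGG matches and 2 CCAAT matches, but no TATAA. Over the whole windows, GGGCGG was found in 8 of the 10 member windows and in 45.0% of all 35116 windows of the same length, TATAA in 4 and in 20.4%, and CCAAT in 4 and in 34.6%. The CACCC element was found in 4 member windows and in 59.9% of all windows. The GC content was 80.7% in the *KLF2* window, 69.0% for *KLF4* and 70.7% for *KLF6*, against a median of 58.7% over all windows, while the *KLF9* window had 32.7%. None of the 10 windows matched the NF-κB consensus, which 11.3% of all windows matched, or the CArG box bound by SRF, which 1.29% matched. These matches describe the letters of the windows only. *KLF3* and *KLF10* had no window.

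Between 16300210 and 22051046 reads were counted in the 6 WT libraries and between 8101212 and 20524958 in the 6 p65-deficient libraries. In the clone, 4 libraries were shallow with 8101212 to 8755001 reads, namely ICRF193 at 0 h and all 3 libraries at 1 h of TNFα. The mRNA of *RELA*, the gene for p65, was still found in the clone at 548 to 673 normalized reads, below the 694 to 909 of the WT libraries. Here and in what follows, a normalized read count is the number of reads divided by the size factor of the library. Epithelial markers summed to 52540 to 68700 normalized reads per library, with 1 of 7 markers under 20 reads throughout. Summed markers of blood cells and of endothelium reached at most 22.45 normalized reads. Of the fibroblast markers, 3 of 4 were under 20 reads in every library, but *COL1A1* had 57 to 227 reads (74.64 to 195.6 normalized). Because no condition was repeated, libraries that differ only in the tested factor were used as matched pairs, and the adjusted p-values below are from edgeR's quasi-likelihood test over all genes tested with Benjamini-Hochberg adjustment. Standard errors (SE) are those of this test. Nothing states that the libraries came from separate cultures, so these p-values measure the spread between pairs that also differ in cell line, TNFα or inhibitor.

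Relative to gene length, *KLF10* was the most abundant member, with a median of 270 normalized reads per kb of exon over the 12 libraries (range 210 to 745). It was followed by *KLF5* (243, range 138 to 343), *KLF16* (206, range 172 to 240), *KLF2* (185, range 117 to 324), *KLF6* (142, range 84.5 to 233), *KLF4* (125, range 83.0 to 179), *KLF3* (118, range 43.5 to 134) and *KLF13* (96.2, range 80.4 to 108). *KLF11* (21.6, range 14.2 to 31.95) and *KLF9* (10.3, range 6.74 to 16.1) were low, and their ranges did not reach those of the other 8 genes. The ranges of neighbours within the upper 8 overlapped, so that their order over all conditions is not firm. Since *KLF9* rested on 27 to 95 reads and *KLF11* on 35 to 181 reads per library, values of both genes carry a large counting error. The spans of the members in hg19 ranged from 2689 bp for *KLF2* (chr19:16435651-16438339, plus strand) to 108811 bp for *KLF13* (chr15:31619058-31727868, plus strand), with a median of 11224.5 bp against 25344 bp over the genes tested. *KLF3* is the only member with an exon overlapped by another gene, the antisense *KLF3-AS1*, which held 1 to 12 reads per library.

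**Figure D1:**
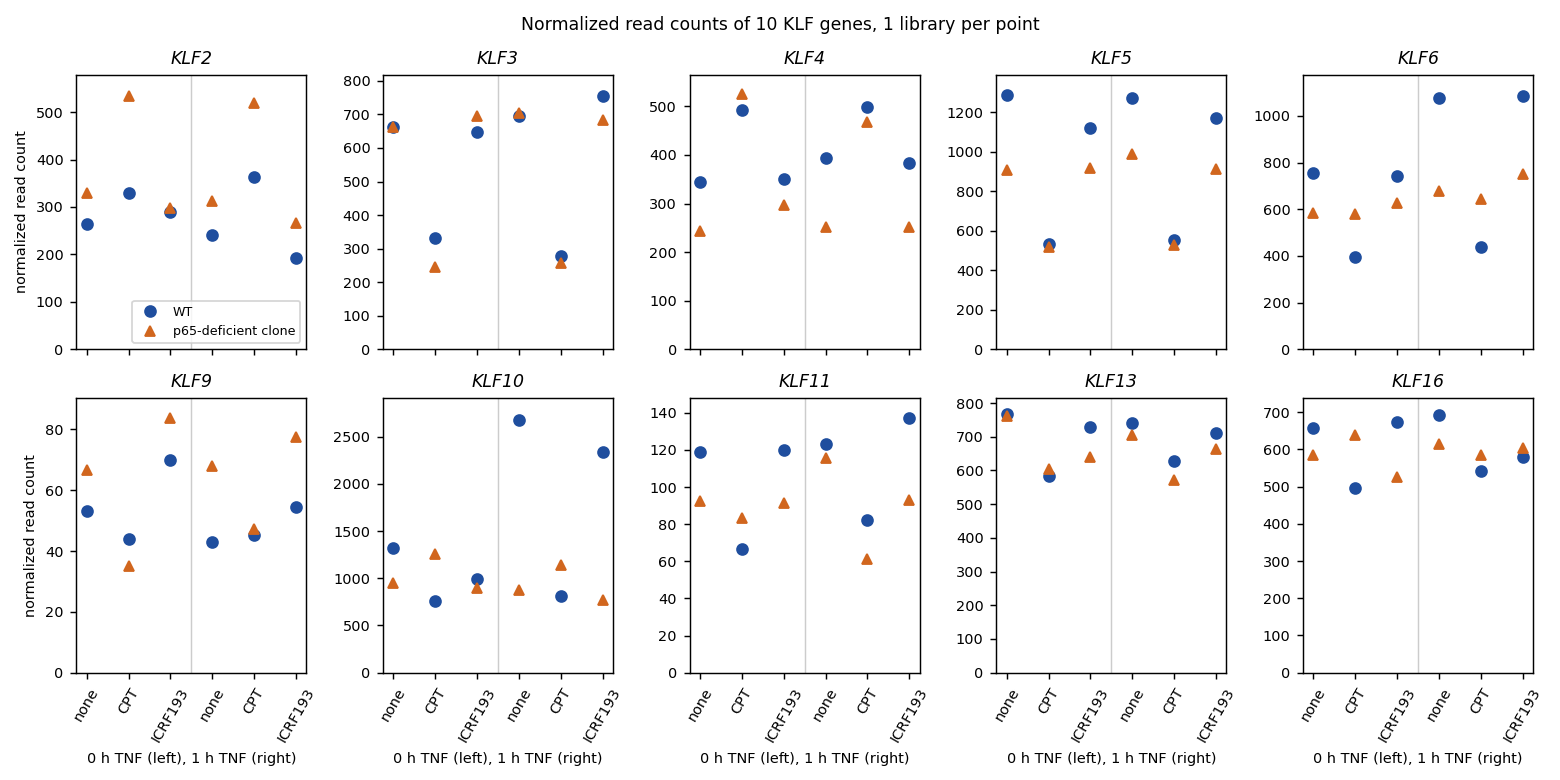
Normalized read counts of the 10 KLF genes, with 1 panel per gene, the 3 inhibitor settings at 0 h TNFα on the left and at 1 h on the right, and 1 point per library (circles WT, triangles p65-deficient clone). *KLF3* and *KLF5* lie lower with CPT in both cell lines, *KLF10* and *KLF6* lie lower with CPT among the circles but level or higher among the triangles, and the 2 highest points of *KLF10* (2676 and 2342) are WT libraries at 1 h TNFα without CPT.

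The effect of TOP1 inhibition was addressed by comparing CPT with no inhibitor in 4 matched pairs, WT and p65-deficient cells each at 0 h and 1 h of TNFα. Of the 10 members, 7 passed the test: *KLF2* and *KLF4* rose, and *KLF3*, *KLF5*, *KLF6*, *KLF11* and *KLF13* fell. CPT changed the transcriptome broadly, since 48.3% of the 13993 genes tested passed, 23.2% as raised and 25.1% as lowered, and 7 of 10 has to be read against this share. The median log2 fold change of the members was -0.44, compared with 0.02 over all genes tested. In RNA from whole cultures, a change in every cell and a change in a share of the cells cannot be told apart. Scaled counts are relative to the other genes of a library, so a change in total RNA per cell with CPT was not measured. Here a gene that rose or fell did so relative to other genes.

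*KLF2*, which restrains inflammatory gene expression in endothelial cells and T cells, was found at 263 normalized reads without inhibitor and 329.8 with CPT in WT cells at 0 h, and at 240.3 and 364 at 1 h. In the p65-deficient clone the counts were 329.7 and 534 at 0 h, and 313 and 519 at 1 h. All 4 CPT libraries were above their partners, and the groups of 4 did not overlap, although the lowest CPT library and the highest uninhibited library were almost equal. The log2 fold change was 0.58 (SE 0.09, adjusted p = 0.00023).

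*KLF4* had 343 normalized reads without inhibitor and 493 with CPT in WT cells at 0 h, and 393 and 498 at 1 h. In the clone it rose from 243 to 524 at 0 h and from 252 to 468 at 1 h. The 4 CPT libraries lay between 468 and 524, whichever the cell line, whereas the uninhibited libraries spread from 243 to 393. The log2 fold change was 0.69 (SE 0.11, adjusted p = 0.00048).

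Over all 4 pairs the largest decrease was seen for *KLF3*, a repressor that works through CtBP. In WT cells it dropped from 663 to 332 normalized reads at 0 h and from 696 to 279 at 1 h. In the clone it dropped from 664 to 244 at 0 h and from 704 to 257 at 1 h. All 4 CPT libraries lay between 244 and 332, far below the 663 to 704 of the uninhibited libraries, and the log2 fold change was -1.30 (SE 0.09, adjusted p = 7.3e-07).

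*KLF5*, the crypt cell factor, dropped from 1285 to 532 normalized reads in WT cells at 0 h and from 1271 to 554 at 1 h. In the clone, which started lower, it went from 908 to 516 at 0 h and from 989 to 526 at 1 h. The 4 CPT libraries were within 516 and 554 although the uninhibited libraries differed between the cell lines, and the log2 fold change was -1.06 (SE 0.08, adjusted p = 1.1e-06). The difference of the CPT effect between the cell lines was 0.36 (SE 0.10) and missed the threshold (adjusted p = 0.057), but passed it with DESeq2 size factors (log2 difference 0.38), without the low-count filter (0.37) and without the WT pair at 1 h (0.40).

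*KLF11* and *KLF13*, both partners of SIN3A, changed less. *KLF11* had 93 to 123 normalized reads in the uninhibited libraries and 61.1 to 83.5 with CPT (log2 fold change -0.59, SE 0.14, adjusted p = 0.0055). A fit with a separate CPT effect per cell line was added after seeing the data. It called *KLF11* in WT cells (-0.70, adjusted p = 0.0025) but not in the clone (-0.42, adjusted p = 0.08). The difference between the cell lines was not called for this gene (0.28, SE 0.25, adjusted p = 0.58). *KLF13* had 705 to 767 without inhibitor and 573 to 628 with CPT (log2 fold change -0.33, SE 0.06, adjusted p = 0.0011). For neither gene did the groups of 4 overlap. Altogether 2 members lay above and 4 below all uninhibited libraries, against 17.4% and 20.5% of the 13823 genes that reached 20 reads somewhere.

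*KLF9*, a hormone-responsive repressor, had 43.0 to 68.0 normalized reads without inhibitor and 35.1 to 47.2 with CPT, and did not pass the test (log2 fold change -0.41, SE 0.18, adjusted p = 0.085). In the fit that separates the cell lines, added after seeing the data, *KLF9* fell in the clone (log2 fold change -0.80, adjusted p = 0.0074). That fit called 45.8% of the 13993 genes in the clone and 44.0% in WT cells. The clone had 95 and 40 reads in the uninhibited and 45 and 27 reads in the CPT libraries. For its pair at 1 h the counting interval included 0 (-0.53, 95% interval -1.29 to 0.21). The difference between the cell lines was not called (-0.69, SE 0.29, adjusted p = 0.2).

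**Figure D2:**
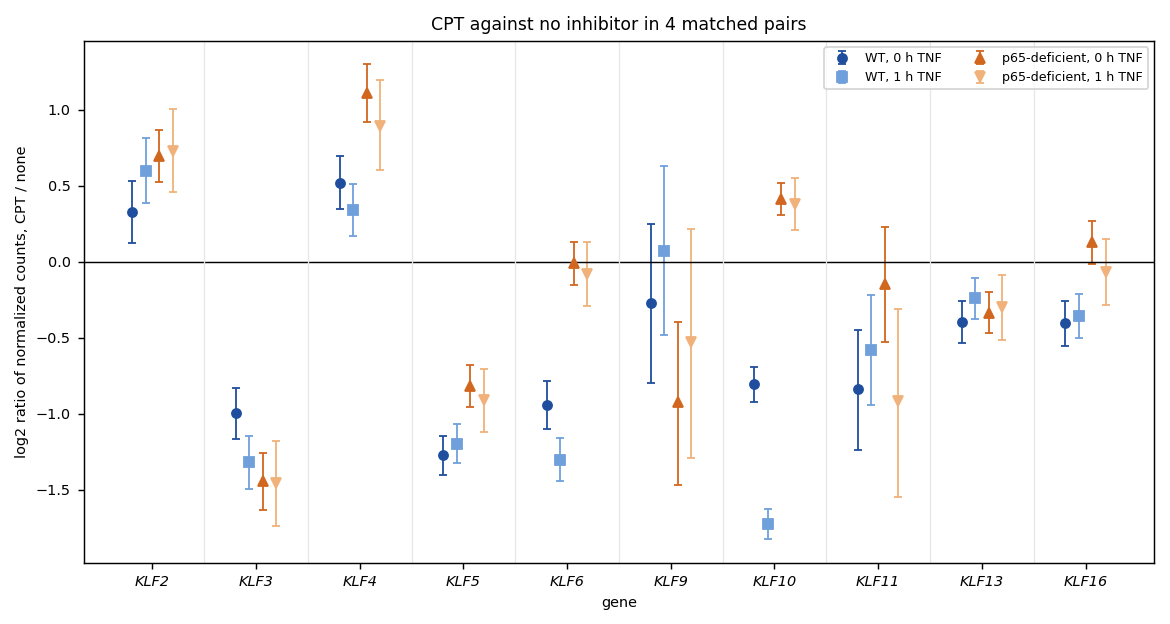
Log2 ratio of normalized counts with CPT over no inhibitor for each KLF gene in the 4 matched pairs (blue WT, orange p65-deficient clone), with exact 95% intervals that cover counting error only. All 4 ratios are above 0 for *KLF2* and *KLF4* and below 0 for *KLF3*, *KLF5*, *KLF6*, *KLF11* and *KLF13*, those of *KLF6* in the clone only slightly (-0.08 and -0.01). The ratio of *KLF11* in the clone at 0 h is -0.15, with an interval that includes 0 (-0.53 to 0.23). *KLF10* is between -1.72 and -0.81 in WT cells and near 0.4 in the clone.

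For *KLF10*, *KLF6* and *KLF16* the CPT effect differed between the cell lines, and for *KLF4* it differed in size. A test of the difference itself was passed by these 4 members, all with a higher CPT to control ratio in the clone, whereas it was passed by 4.51% of the 13993 genes and in this direction by 2.29%. *KLF10* had 1319 normalized reads without inhibitor and 754 with CPT in WT cells at 0 h, and 2676 and 809.9 at 1 h. In the clone it had 948 and 1260 at 0 h, and 874 and 1137 at 1 h. CPT therefore went with a decrease in both WT pairs and an increase in both p65-deficient pairs, and the difference was 1.66 on the log2 scale (SE 0.20, adjusted p = 0.00018). Over all 4 pairs *KLF10* was not called (-0.48, SE 0.28, adjusted p = 0.18). In the fit with a separate CPT effect per cell line, which was added after seeing the data and has 2 residual degrees of freedom, the effect was -1.28 in WT cells (SE 0.13, adjusted p = 1.5e-06) and 0.38 in the clone (SE 0.14, adjusted p = 0.041).

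*KLF6*, a factor induced early after wounding and growth stimuli, showed a similar split without the rise in the clone. WT cells had 756 normalized reads without inhibitor and 394 with CPT at 0 h, and 1076 and 436 at 1 h. In the clone the counts were 584 and 579.8 at 0 h, and 679.7 and 643 at 1 h, and the intervals of both log2 ratios (-0.01, 95% interval -0.16 to 0.13, and -0.08, 95% interval -0.29 to 0.13) included 0. The difference between the cell lines was 1.07 (SE 0.13, adjusted p = 0.00017). The effect over all 4 pairs (-0.61, SE 0.18, adjusted p = 0.014) was unequal between the cell lines: it was -1.12 in the WT pairs (adjusted p = 4.3e-08) and -0.06 in the clone (adjusted p = 0.63). It was not called by DESeq2 (adjusted p = 0.13) or without either WT pair (log2 fold changes -0.50 and -0.36).

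*KLF16* fell in WT cells from 658 to 497 normalized reads at 0 h and from 693 to 541 at 1 h, and had 585 and 639.8 at 0 h and 614 and 585 at 1 h in the clone. The WT effect was -0.38 (adjusted p = 0.00089), the effect in the clone 0.03 (adjusted p = 0.78), and the difference 0.41 (SE 0.11, adjusted p = 0.0496). *KLF4* rose by 0.44 in WT cells (adjusted p = 0.00093) and by 1.01 in the clone (adjusted p = 1.1e-06), with a difference of 0.57 (SE 0.13, adjusted p = 0.025). Both calls of a difference were lost with DESeq2 (adjusted p = 0.34 for *KLF4* and 0.52 for *KLF16*) and without the p65-deficient pair at 0 h (log2 differences 0.45 and 0.30). For *KLF16* the call was also lost without the WT pair at 0 h (0.39), without the block of the pairs (0.40) and when scaled to total reads (0.39). The CPT effect on *RELA* differed between the cell lines as well (0.56, adjusted p = 0.0076), and its part in these differences was not tested.

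The response to TNFα was examined first in the 3 WT pairs (no inhibitor, CPT and ICRF193), where 2 members, *KLF10* and *KLF6*, rose at 1 h. Only 0.642% of the 13707 genes tested passed this comparison, 0.613% as raised. Without inhibitor *KLF10* rose from 1319 to 2676 normalized reads, and with ICRF193 from 995 to 2342. With CPT it had 754 reads at 0 h and 809.9 at 1 h. The log2 ratios were 1.02 (95% interval 0.94 to 1.10), 1.24 (1.14 to 1.34) and 0.10 (-0.03 to 0.23), so the ratio with CPT was the lowest of the 3. These intervals cover counting error only and do not test a difference between single libraries. The effect over the 3 pairs was 0.83 (SE 0.11, adjusted p = 6.15e-05). DESeq2, which gave a log2 fold change of 0.79, did not call it (adjusted p = 1.0), nor did edgeR without the block (log2 fold change 0.93).

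*KLF6* followed the same order at smaller size. It rose from 756 to 1076 normalized reads without inhibitor (log2 ratio 0.51, 95% interval 0.39 to 0.62) and from 741 to 1086 with ICRF193 (0.55, 0.43 to 0.68). With CPT it had 394 and 436 (0.15, -0.03 to 0.33). The effect over the 3 pairs was 0.43 (SE 0.07, adjusted p = 0.00045), and it was not called without the block (0.46). None of the other 8 members passed the test, and their log2 fold changes were between -0.22 and 0.17. *KLF2* was the exception to this once the CPT pair was left out, when it passed with -0.34: it had 263 and 240.3 reads without inhibitor, 289.8 and 193 with ICRF193, but 329.8 and 364 with CPT.

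**Figure D3:**
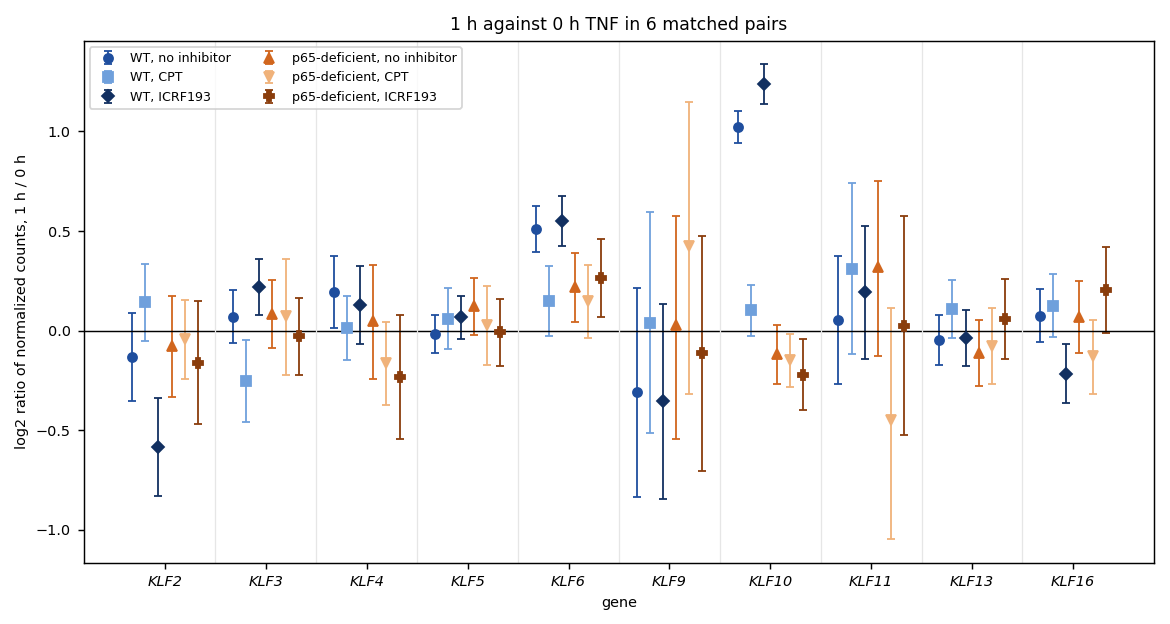
Log2 ratio of normalized counts at 1 h over 0 h TNFα for each KLF gene in 6 matched pairs (blue WT, orange p65-deficient clone, each without inhibitor, with CPT and with ICRF193), with exact 95% intervals that cover counting error only. *KLF10* stands at 1.02 and 1.24 in WT cells without inhibitor and with ICRF193, and between -0.22 and 0.10 in the other 4 pairs.

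In the p65-deficient clone no member passed the TNFα test by edgeR or by DESeq2, against 0.498% of the 12858 genes tested by edgeR. At an unadjusted p under 0.05 were 2 members by edgeR and 1 by DESeq2, against 1683 and 463 of all genes tested. *KLF10* had 948 normalized reads at 0 h and 874 at 1 h without inhibitor, 1260 and 1137 with CPT, and 895 and 768 with ICRF193, so that all 3 pairs were slightly lower at 1 h (log2 fold change -0.15, SE 0.06, adjusted p = 0.28). *KLF6* was slightly higher in all 3 pairs, with 584 and 679.7, 579.8 and 643, and 626 and 752 normalized reads (log2 fold change 0.22, SE 0.07, adjusted p = 0.16). The pairs without inhibitor and with CPT compare a deep library with a shallow one.

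The difference of the TNFα effect between the cell lines was called for *KLF10* alone among the members (WT minus clone 0.98, SE 0.18, adjusted p = 0.019), and for 0.218% of the 13730 genes tested. It was lost without the uninhibited WT pair (0.86), the WT pair with ICRF193 (0.77) or the uninhibited p65-deficient pair (1.00), and with DESeq2 (0.95) or without the block (1.08). For *KLF6* the difference was 0.21 (SE 0.10, adjusted p = 0.48), so a difference between WT cells and the clone was not shown for this gene.

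Whether CPT changed the TNFα response was tested as an interaction over the 4 pairs with and without CPT. None of the members passed by edgeR or DESeq2, against 0.00715% of the 13993 genes by edgeR. At an unadjusted p under 0.05 there was also no member by either tool, against 82 of all genes by edgeR and 9 by DESeq2. This fit averages over WT cells and the clone, in which *KLF10* did not rise. Without the WT pair at 0 h *KLF10* (-1.19) and *KLF6* (-0.73) passed, but both changed sign and were not called without the WT pair at 1 h (0.55 and 0.37) or the p65-deficient pair at 0 h (0.02 and 0.18). Leaving out a pair leaves the TNFα times unbalanced between the cell lines, so that such a value takes in the cell line difference as well. A fit restricted to WT cells, added after seeing the data, set the 1 CPT pair against the pairs with no inhibitor and ICRF193. Its 1 residual degree of freedom comes from these last pairs alone, so the CPT pair is assumed to vary as they do and the spread of the response with CPT was not measured. Under that assumption 4.19% of 13707 genes and 4 members were below the threshold, and their log2 differences, which are given as a description, were -1.01 for *KLF10*, -0.38 for *KLF6*, -0.39 for *KLF3* and 0.48 for *KLF2*.

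TOP2 inhibition changed the members little. ICRF193 was compared with no inhibitor in 4 matched pairs, and 1 member, *KLF10*, passed the test as lowered, against 2.17% of the 13631 genes tested and 1.58% in this direction. The p65-deficient pair at 0 h sets a shallow ICRF193 library against a deep one. *KLF10* had 1319 normalized reads without inhibitor and 995 with ICRF193 in WT cells at 0 h, 2676 and 2342 at 1 h, 948 and 895 in the clone at 0 h, and 874 and 768 at 1 h. It was lower in 4 of 4 pairs (log2 fold change -0.23, SE 0.04, adjusted p = 0.0004). The decrease was largest in the first of these pairs (-0.41, 95% interval -0.51 to -0.30), and without that pair (-0.16) or without the block (-0.21) it was not called. *KLF5* had a log2 fold change of -0.12 (SE 0.04, adjusted p = 0.2), which passed once the p65-deficient pair at 0 h was left out (-0.15). The remaining 8 log2 fold changes were between -0.11 and 0.33, the largest for *KLF9* (0.33, SE 0.13, adjusted p = 0.27). *KLF9* was higher and *KLF13* lower in 4 of 4 pairs, neither being called.

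**Figure D4:**
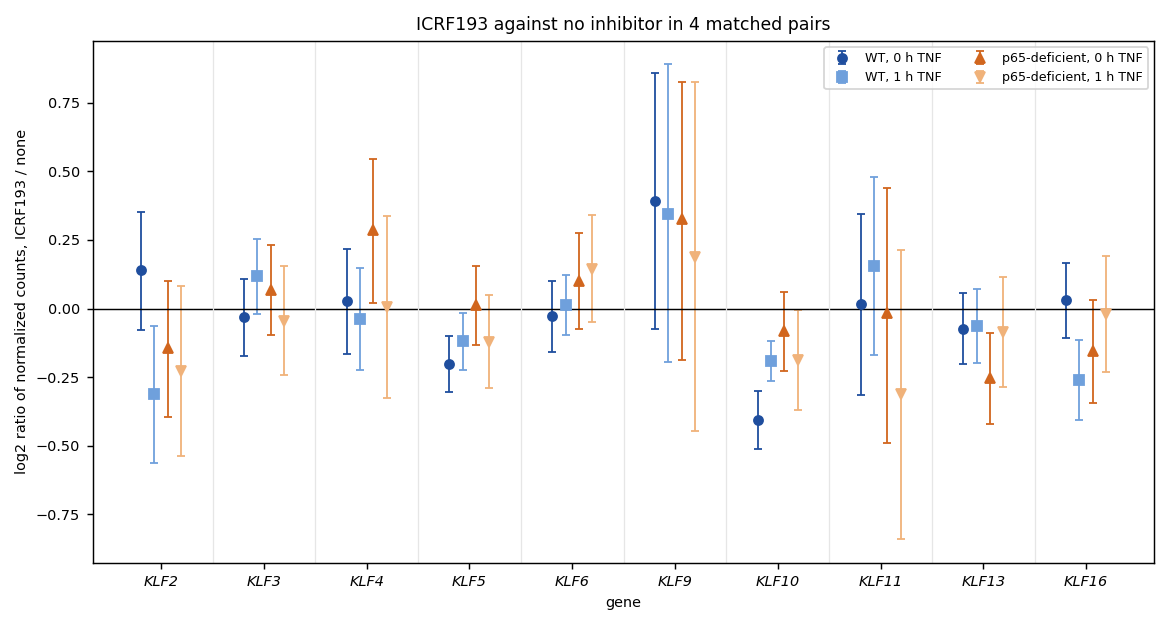
Log2 ratio of normalized counts with ICRF193 over no inhibitor for each KLF gene in the 4 matched pairs (blue WT, orange p65-deficient clone), with exact 95% intervals that cover counting error only. All ratios lie between -0.41 and 0.39. *KLF10* and *KLF13* are below 0 in each pair, and *KLF9* is above 0 in each pair.

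The inhibitors were also compared directly, at the same concentration and time. In the clone at 0 h the CPT library was deep and the ICRF193 library shallow. CPT libraries differed from ICRF193 libraries in 8 of the 10 members, against 46.4% of the 13900 genes tested, 20.9% as higher and 25.5% as lower. *KLF2* (0.69, SE 0.12, adjusted p = 0.00034) and *KLF4* (0.60, SE 0.09, adjusted p = 0.00017) were higher with CPT. *KLF3* (-1.34, SE 0.09, adjusted p = 1.1e-07), *KLF5* (-0.97, SE 0.07), *KLF6* (-0.69, SE 0.15), *KLF9* (-0.72, SE 0.18), *KLF11* (-0.62, SE 0.15) and *KLF13* (-0.22, SE 0.07, adjusted p = 0.016) were lower. *KLF6* lost the call with DESeq2 (adjusted p = 0.057), and *KLF13* with DESeq2 (log2 fold change -0.20) or without any of 3 of the pairs. *KLF10* (-0.28, SE 0.25, adjusted p = 0.38) and *KLF16* (-0.10, SE 0.10, adjusted p = 0.41), which moved differently in WT cells and the clone, were not called. Both passed without the p65-deficient pair at 0 h (-0.56 and -0.22), and *KLF10* also without the low-count filter (-0.29). The sign turned for *KLF10* without the WT pair at 1 h (0.19) and for *KLF16* without the WT pair at 0 h (0.03), neither being called.

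Across the 6 pairs matched on inhibitor and TNFα, the clone differed from WT cells in 3 of the 10 members. Of the 13730 genes tested 32.1% differed, 15.2% as higher and 16.9% as lower in the clone. The members were thus not called more often than genes in general. *KLF2* was higher in the clone (0.42, SE 0.08, adjusted p = 0.0011), and *KLF4* (-0.30, SE 0.09, adjusted p = 0.02) and *KLF5* (-0.28, SE 0.06, adjusted p = 0.0028) were lower. *KLF5* had 1118 to 1285 normalized reads in the 4 WT libraries without CPT and 908 to 989 in the 4 corresponding clone libraries, whereas all CPT libraries of both cell lines lay between 516 and 554. *KLF4* had 343 to 393 in these WT libraries and 243 to 297 in the clone, and 468 to 524 with CPT in either. The gap between the cell lines was thus seen without CPT for both genes. It was also seen without CPT for *KLF10* (995 to 2676 in WT cells, 768 to 948 in the clone) and *KLF11* (118.8 to 137.2 and 91.5 to 115.6), which were not called. The share of all genes with such a gap was not determined. With the CPT libraries included, the WT and clone ranges overlapped for every member. Among 13823 genes, 3.99% lay higher and 4.93% lower in the clone without overlap. None of the 3 differences was called without the block of the pairs (0.44, -0.26 and -0.31), and that of *KLF4* was also lost without 3 of the 6 pairs in turn (log2 fold changes -0.25 each). The clone libraries with ICRF193 at 0 h and all those at 1 h were shallow and were set against deeper WT libraries.

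Of the 7 other KLF genes counted, *KLF1* and *KLF17* had at most 2 reads per library and *KLF8* and *KLF12* at most 18, whereas *KLF7*, *KLF14* and *KLF15* were tested. CPT raised *KLF15* (0.84, SE 0.21, adjusted p = 0.0065) and lowered *KLF7* (-0.37, SE 0.13, adjusted p = 0.034). *KLF14*, an intronless copy of *KLF16*, was not called (0.21, SE 0.18, adjusted p = 0.35), and reads of both genes could be exchanged where their sequences are alike. Of the 9 SP genes 5 were tested. *SP6*, a factor of epithelial cells, rose from 267 to 483 normalized reads at 0 h and from 210.3 to 536 at 1 h in WT cells with CPT, and from 220.3 to 712 and from 194 to 681 in the clone (1.39, SE 0.13, adjusted p = 6.8e-06). *SP3* fell (-0.70, SE 0.05, adjusted p = 1.1e-06), and *SP1*, with 2198 to 2563 normalized reads in all libraries, did not pass (-0.10, SE 0.05, adjusted p = 0.085).

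Among 18 regulators and cofactors of KLF proteins, CPT raised 3 and lowered 8, against 23.2% and 25.1% of all genes tested, with a median log2 fold change of -0.15 against 0.02. The histone acetyltransferase genes *EP300* (-0.99, SE 0.09) and *CREBBP* (-0.46, SE 0.07), *SIN3A* (-0.60, SE 0.05), and *FBXW7* (-0.96, SE 0.07) and *WWP1* (-0.33, SE 0.08), which encode ubiquitin ligases that act on KLF5, were lowered along with *MEF2A*, *MEF2C* and *MEF2D*, which activate *KLF2* and *KLF4*. *HDAC1* (0.31, SE 0.04), *HDAC2* (0.13, SE 0.04) and *CTBP1* (0.12, SE 0.05), the corepressor partner of KLF3, were raised. Of 8 genes reported to be controlled by KLF factors 6 were tested, and CPT raised *ODC1* (0.18, SE 0.05, adjusted p = 0.0061), lowered *SMAD7* (-1.13, SE 0.34, adjusted p = 0.017) and *CCNB1* (-0.15, SE 0.04, adjusted p = 0.01), and left *CCND1*, *NOS3* and *CDKN1A* not called. *SMAD7*, an inhibitor of TGFβ signalling known to be repressed by KLF10, had 154 and 35.7 normalized reads without and with CPT in WT cells at 0 h, and 173 and 39.4 at 1 h. In the clone it had 82.1 and 89.7 at 0 h, and 69.7 and 62.9 at 1 h. The difference of the CPT effect on *SMAD7* between the cell lines was 2.15 (SE 0.23, adjusted p = 6.9e-05). Such a difference was also called, in the same direction, for *SRF* (0.62, adjusted p = 0.0028), *MEF2D* (0.56, adjusted p = 0.029) and *SP6* (0.62, adjusted p = 0.037), and for no other gene of the lists. The cyclin-dependent kinase inhibitor gene *CDKN1A*, a target of KLF4 and KLF6, was not called with CPT (0.06, SE 0.05, adjusted p = 0.37) and rose with ICRF193 (0.30, SE 0.03, adjusted p = 3.1e-09). No gene of these lists passed the TNFα tests.

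The pattern of each member over the 12 libraries was set beside that of the 10124 other genes with a mean of at least 100 normalized reads by Pearson's correlation of log2 counts. The libraries share clone, inhibitor and depth, so the values only describe likeness. The closest genes to *KLF3* were *CMTR2* (r = 0.998), *ZZZ3* (0.995) and *NPAT* (0.995), and those to *KLF5* were *ZNF263* (0.994), *SRSF4* (0.992) and *PHLPP2* (0.991). For *KLF10*, *SDC4* (0.935), *IFNGR2* (0.924) and *N4BP3* (0.921) came closest, and for *KLF6*, *GORAB* (0.938), *VEGFA* (0.935) and *IER3* (0.934). *KLF2* was most like *URM1* (0.975) and *KLF4* most like *GNB1* (0.969). Among the members themselves *KLF3* and *KLF5* were the most alike pair (0.933), *KLF6* was closest to *KLF10* (0.794), and *KLF4* ran opposite to *KLF9* (-0.863). *KLF16* had the weakest best match of the 10 members, with *TNPO2* at 0.889.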

How the data were processed

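RNA from 12 HCT116 libraries, 1 per condition, was sequenced from a kit that marks strand. Per the labels and the file headers, the authors trimmed the reads with Trimmomatic, worked on hg19 and counted reads per gene with featureCounts 1.5.0, run without a strand option, so sense and antisense reads were added up. STAR and deepTools are listed in the submitters' processing notes without a role. The deposited values are raw counts for 26364 gene symbols and were not normalized.

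For display, each count was scaled by the size factor that DESeq2 gave its library, and log2 ratios of 2 libraries carry exact Clopper-Pearson 95% intervals that cover counting error only. Tests used edgeR 4.0.16 (TMM, filterByExpr, quasi-likelihood) with the matched pair as a block. The pair, not a replicate number, is the block, because each condition has 1 library. Benjamini-Hochberg adjustment ran over all genes tested, genes were called below an adjusted p of 0.05, and each SE is the fold change on the log2 scale divided by the root of the F statistic. The procedure was tested on simulated counts. Alternatives were DESeq2 1.42.0, DESeq2 size factors or total reads for scaling, no low-count filter, no block, and leaving out each pair. Fits per cell line and a WT-only interaction were added after seeing the data. Correlations used log2(normalized count + 0.5).

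The 10 members, the gene lists and the comparisons were chosen with earlier results of these data known. The genes named are the members, the lists of other KLF and SP genes, regulators, cofactors and reported targets, and the 3 genes most like each member, given here for 4 members and as the closest gene alone for 3 others. Marker lists covered colon epithelium, blood cells, fibroblasts and endothelium. RefSeq promoter windows (GRCh38.p14) served for sequence only, and no coordinate was carried between builds.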

Additional observations from a re-analysis of the deposited data

Results flagged for a closer look

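Results in this section are those in which an effect differed between WT cells and the p65-deficient clone by a test of the difference itself, by edgeR's quasi-likelihood test. The TNFα effect on *KLF10* was larger in WT cells by 0.98 on the log2 scale (adjusted p = 0.019), with 1 h libraries above 0 h libraries in 3 of 3 WT pairs and below them in 3 of 3 pairs of the clone. For the WT pair with CPT the log2 ratio was 0.10, and its counting interval included 0 (-0.03 to 0.23). This call of a difference was lost with DESeq2 and without the block of the pairs. It was also lost without the uninhibited WT pair, the WT pair with ICRF193 or the uninhibited p65-deficient pair.

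The CPT effect was higher in the clone by 1.66 for *KLF10* (adjusted p = 0.00018), by 1.07 for *KLF6* (adjusted p = 0.00017), by 0.57 for *KLF4* (adjusted p = 0.025) and by 0.41 for *KLF16* (adjusted p = 0.0496). The calls for *KLF4* and *KLF16* were lost with DESeq2 and without the p65-deficient pair at 0 h. For *KLF10* the direction was opposite, with lower counts under CPT in both WT pairs and higher counts in both pairs of the clone. The libraries at 1 h TNFα are shallow in the clone and deep in WT cells, while the CPT pairs of the clone match in depth, and the part of depth in the TNFα difference was not tested.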

How the results depend on the processing

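All effects of CPT that the report calls for *KLF2*, *KLF3*, *KLF4*, *KLF5* and *KLF13* over the 4 pairs kept their direction and their side of the threshold under every alternative run. Taken in the p65-deficient pairs alone, *KLF11* was not called (-0.42) and *KLF10* reversed, from -0.48 to 0.38. *KLF9* (-0.44), *KLF10* (-0.50) and *KLF16* (-0.21) were called for CPT without the low-count filter, *KLF9* also without the WT pair at 1 h (-0.59), and *KLF10* (-0.81) and *KLF16* (-0.31) without the p65-deficient pair at 0 h. Without the block of the matched pairs, no member was called for ICRF193 (0 instead of 1), TNFα in WT cells (0 instead of 2), TNFα by cell line (0 instead of 1) or clone against WT (0 instead of 3). DESeq2 called 1 member for TNFα in WT cells, 0 for TNFα by cell line and 2 for CPT by cell line. The WT-only fit, with the spread taken from pairs without CPT, called 4 for CPT by TNFα. Leaving out 1 pair at a time gave 0 to 2 members for ICRF193 (0 without the WT pair at 0 h), 0 to 1 for TNFα by cell line, 2 to 6 for clone against WT, 2 to 6 for CPT by cell line (2 without the p65-deficient pair at 0 h) and 0 to 2 for CPT by TNFα. For clone against WT, *KLF9* (0.38), *KLF10* (-0.67) and *KLF11* (-0.35) were added without the CPT pair at 0 h. The causes of these changes were not tested. In 51 cases the value of a member changed sign with neither value past the threshold.

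Over all genes, counts moved by more than 1.5 times as follows. For ICRF193, 296 became 85 with DESeq2, 3 without the block and 148 (without the WT pair at 1 h) to 322 without a pair, with 177 without the WT pair at 0 h. For TNFα in WT cells, 88 became 22 with DESeq2, 0 without the block, with 97 genes at an unadjusted p under 0.05, and 60 to 372 without a pair (372 without the CPT pair). For TNFα in the clone, 64 became 8 with DESeq2, 0 without the block, 143 without the filter, 39 with total reads and 14 (without the uninhibited pair) to 581 (without the ICRF193 pair). For TNFα by cell line, 30 became 10 with DESeq2, 0 without the block, 132 without the filter and 5 to 76 without a pair, every one of the 6 pairs moving it by over 1.5 times. For clone against WT, 4408 became 2043 without the block. For CPT by cell line, 631 became 126 with DESeq2, 340 without the block, 1096 without the filter and 221 (without the p65-deficient pair at 0 h) to 1606 (without the WT pair at 1 h). For CPT by TNFα, 1 became 0 without the block, 21 without the filter, 575 in the WT-only fit and 7 to 62 without a pair (62 without the WT pair at 0 h). Scaling to total reads moved the share of raised calls from 27% to 38.0% for ICRF193, from 56.2% to 71.8% for TNFα in the clone and from 47.5% to 57.5% for clone against WT. The low counts of *KLF9* and *KLF11* and the 4 shallow clone libraries limit the precision of single libraries.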
